A study of Rattus norvegicus with 18 samples.

Results

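A set of 10 genes of the blood platelet was followed: Pf4, Ppbp, Itga2b, Itgb3, Gp1bb, Gp5, Gp9, P2ry12, Selp and F13a1. They encode surface glycoproteins and receptors, proteins of the granules and, for F13a1, a chain of factor XIII. They were found on the arrays by RefSeq accession. A probe matched for 9 of the 10 genes, and Itga2b had no matching probe. All 9 were well above background in Cy5 on all 18 arrays, out of 13616 named genes tested. The samples were blood drawn from the eye's venous sinus of male Brown Norway (BN) and male Sprague Dawley (SD) rats. BN is an inbred strain and SD an outbred one. The groups were 4 arrays of BN rats given procainamide at 40 mg/kg, 4 of BN control rats given sterile water, 5 of SD rats given procainamide at 40 mg/kg and 5 of SD control rats given sterile water. Procainamide is an antiarrhythmic drug known for inducing lupus-like autoimmunity in some patients. The labels give neither age nor length of treatment. No label ties an array to a rat of its own, so the replicate spread behind the p-values may be technical in part.

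Platelets are fragments of megakaryocytes, large cells of the bone marrow, and carry mRNA made there because they have no nucleus. At a wound the receptor complex of Gp1ba, Gp1bb, Gp5 and Gp9 catches von Willebrand factor on exposed collagen. ADP released from granules acts through P2ry12, and the integrin formed by Itga2b and Itgb3 then binds fibrinogen and joins platelets to each other. Alpha granules release the chemokines Pf4 and Ppbp and bring P-selectin, the product of Selp, to the surface, while F13a1 encodes the A chain of factor XIII, which crosslinks fibrin. Several of these genes are also used by other cells: Selp by endothelium, F13a1 by monocytes and macrophages, P2ry12 by microglia and Itgb3 by endothelium and osteoclasts. In whole blood RNA, fewer platelets and less RNA per platelet cannot be told apart.

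RefSeq promoter sequences (rat build GRCr8, 250 bases before to 50 after the start of the gene, on the gene's own strand) were matched for 6 of the 10 genes, namely Ppbp, Itga2b, Gp1bb, Gp5, Gp9 and F13a1. Megakaryocyte genes are known as targets of GATA and ETS factors, so both strands were searched for words of both kinds. A GATA word was AGATAA or its variant AGATAG, and likewise the word TGATAA or its variant TGATAG. An ETS word was AGGAAG or its variant CGGAAG. Words of the GATA kind stood in 3 of the 6 promoters (Itga2b, Gp1bb and Gp5) and in 30.3% of 33469 promoters of the same length. ETS words stood in 5 of the 6, Ppbp being the exception, and in 45.5% of all promoters. The promoters of Gp1bb, Gp5 and Gp9 are shown because their products act in a single complex and the 3 genes are described together below. Capitals mark the words found, on either strand, and no 2 of them overlap. The Gp1bb promoter is chr11:95882311-95882610 on the plus strand, with 2 GATA words and 1 ETS word. The Gp5 promoter is chr11:83948257-83948556 on the plus strand, with 2 GATA words and 1 ETS word. The Gp9 promoter is chr4:121792592-121792891 on the plus strand, with 3 ETS words.
Gp1bb: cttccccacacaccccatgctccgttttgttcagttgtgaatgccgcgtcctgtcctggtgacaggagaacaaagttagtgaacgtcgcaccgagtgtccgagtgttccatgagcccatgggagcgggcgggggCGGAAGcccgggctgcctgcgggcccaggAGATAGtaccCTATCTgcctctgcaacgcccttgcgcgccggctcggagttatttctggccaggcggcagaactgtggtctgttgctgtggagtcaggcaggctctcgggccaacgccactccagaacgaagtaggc
Gp5: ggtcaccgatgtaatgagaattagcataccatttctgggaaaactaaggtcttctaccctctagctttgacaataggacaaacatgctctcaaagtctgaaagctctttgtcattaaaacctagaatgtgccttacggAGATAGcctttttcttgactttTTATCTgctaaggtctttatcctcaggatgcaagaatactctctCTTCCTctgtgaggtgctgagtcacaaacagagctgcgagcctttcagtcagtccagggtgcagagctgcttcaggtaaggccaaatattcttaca
Gp9: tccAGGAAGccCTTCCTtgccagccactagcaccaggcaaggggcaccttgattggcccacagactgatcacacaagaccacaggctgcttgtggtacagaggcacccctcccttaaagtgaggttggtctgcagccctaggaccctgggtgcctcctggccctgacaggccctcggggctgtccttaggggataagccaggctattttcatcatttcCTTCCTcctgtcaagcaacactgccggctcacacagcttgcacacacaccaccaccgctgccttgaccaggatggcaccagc

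Each sample was labelled with Cy5 and hybridised against a Cy3 reference, which the labels give as control replicate 1 of the sample's strain. The drug response was therefore read as the log2 ratio of Cy5 over Cy3, and the strain difference as log2 Cy5. Per array, 73.4% to 87.1% of probes stood well above background, and the median Cy5 signal lay between 997 and 3187. The measured markers of erythroid cells (7), T cells (7), B cells (3), monocytes (10) and neutrophils (8) were all well above background on all 18 arrays. There were 3 slides: the 4 BN procainamide arrays filled slide 3, the 4 BN control arrays shared slide 2 with SD procainamide 4 and 5, and the remaining SD arrays were on slide 1. Slide 2 was scanned on the day after the other 2, so in BN the treatment and the slide cannot be told apart. On the array of BN control 1 the labels put the same RNA in both channels, yet all 9 genes lay above 0 there, between 0.13 for Pf4 and 0.78 for Ppbp. Its log2 ratios had an SD of 0.409 over all probes, against 0.334 to 0.459 on the other BN control arrays. On the same array the erythroid markers had a mean log2 ratio of 1.22, against -1.58 to -0.18 on the other BN control arrays. The BN calls of the 9 genes after procainamide are therefore also given without that array, as is the strain call of Ppbp under water. Results of the wider gene lists, the markers of other cells and the correlations are given with it only. By the labels SD control 1 also held the same RNA in both channels. There the mean log2 ratio of the 9 genes was -0.16, against -0.09 to 0.08 on the other SD control arrays. Its log2 ratios had an SD of 0.252 over all probes, against 0.205 to 0.285 on the other SD control arrays.

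In BN blood, 6 of the 9 measured genes were lower after procainamide than under water and none was higher. They were Ppbp, Gp1bb, P2ry12, Gp9, F13a1 and Gp5, by 2.39-fold to 1.34-fold. Of all named genes 13.8% were called lower and 8.99% higher in the same comparison. The test was limma's moderated test with Benjamini-Hochberg adjustment over all 26446 probes at a threshold of 0.05, as for every adjusted p given here. The median log2 difference of the 9 genes was -0.53, against -0.02 over all named genes. The groups did not overlap for 3 of the 9, and for 19.9% of all named genes. None of the 6 calls held with scan day as a term, and 3 held without BN control 1, those of Gp1bb, P2ry12 and F13a1.

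**Figure D1:**
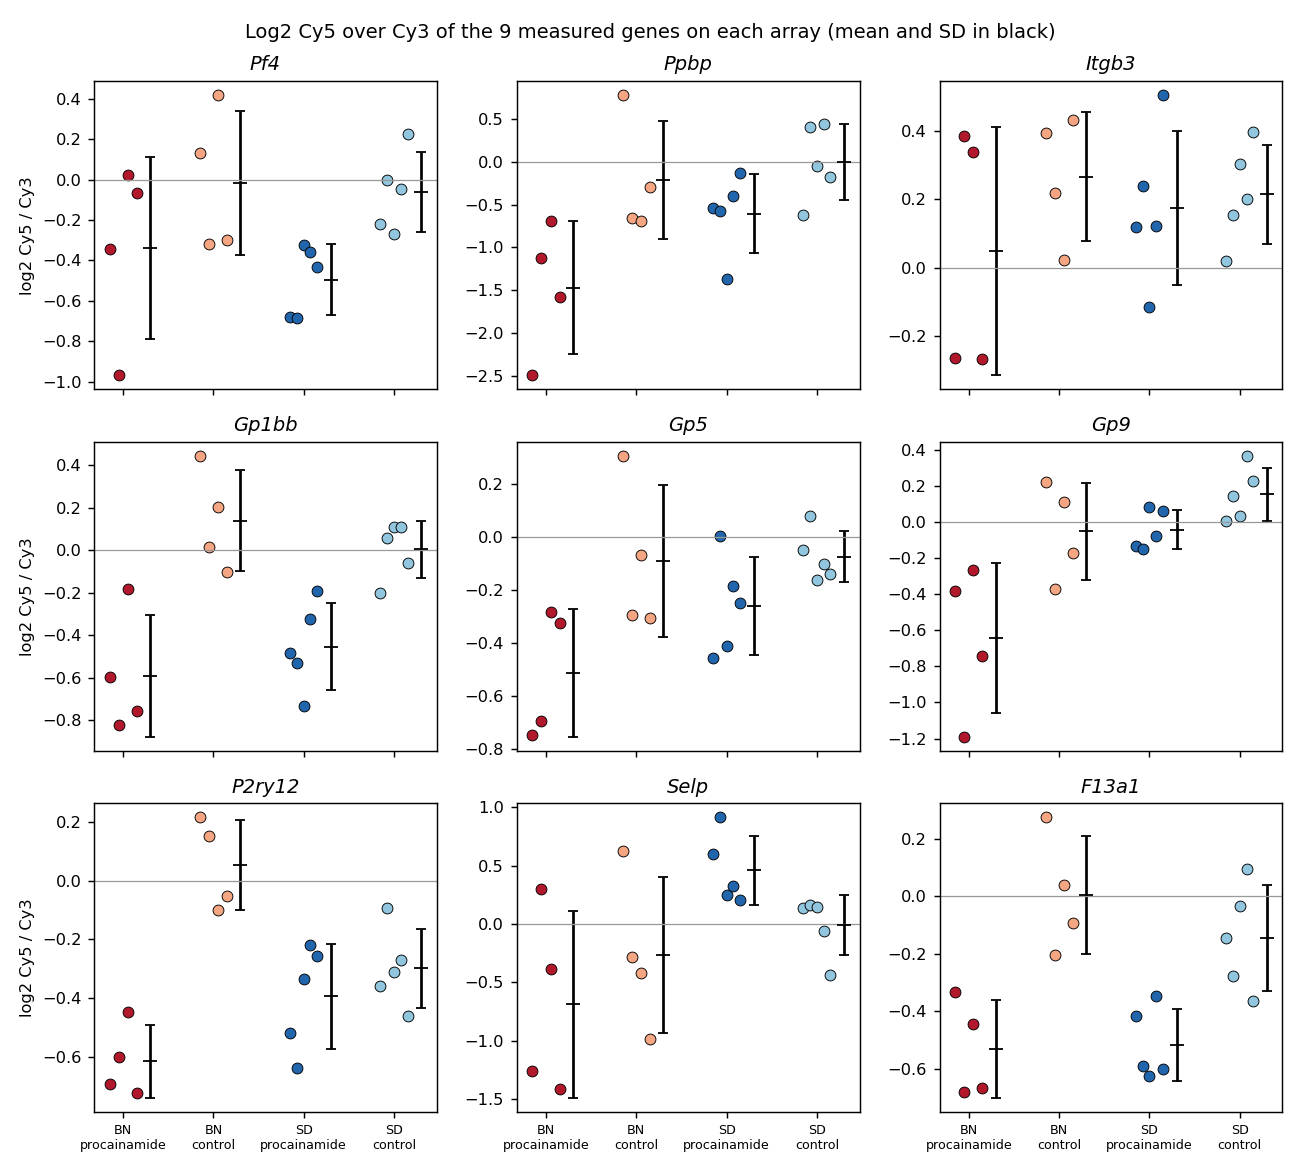
Log2 Cy5 over Cy3 (vertical axes) of the 9 measured platelet genes on each of the 18 arrays, as 1 point per array, with the mean and SD of each group in black. P2ry12, Gp1bb and F13a1 lie lower on all 4 BN procainamide arrays than on any BN control array, and the BN spread is widest for Ppbp and Selp.

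Of the von Willebrand factor receptor, Gp1bb, Gp5 and Gp9 were called lower in BN blood. Its other chain, Gp1ba, which is not among the 10 genes and is added here after its values were seen, was not called (-0.21 ± 0.17, SE; adjusted p = 0.403 by limma). Gp1bb, the beta chain of glycoprotein Ib, had log2 ratios of -0.60, -0.82, -0.18 and -0.76 in BN procainamide 1 to 4, against 0.44, 0.01, 0.20 and -0.10 in BN control 1 to 4. Every BN procainamide array was below every BN control array. The log2 difference was -0.73 ± 0.15 (SE; adjusted p = 0.00237 by limma). A second probe of Gp1bb gave -0.42 (adjusted p = 0.0468 by limma).

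Gp9, glycoprotein IX, had log2 ratios of -0.38, -1.19, -0.26 and -0.74 in BN procainamide 1 to 4, against 0.22, -0.37, 0.11 and -0.17 in BN control 1 to 4. The groups overlapped, since BN control 2 was below BN procainamide 3. Its difference was -0.59 ± 0.17 (SE; adjusted p = 0.0177 by limma). Gp5, glycoprotein V, had log2 ratios of -0.75, -0.69, -0.29 and -0.33 in BN procainamide 1 to 4, against 0.30, -0.29, -0.07 and -0.31 in BN control 1 to 4. BN control 2 and 4 lay at the level of BN procainamide 3 and 4, and BN control 1 stood above all. The difference was -0.42 ± 0.14 (SE; adjusted p = 0.0417 by limma), and it was lost without any of BN control 1 (-0.29, adjusted p = 0.127 by limma), BN control 3 (-0.41, adjusted p = 0.0797), BN procainamide 1 (-0.34, adjusted p = 0.102) or BN procainamide 2 (-0.36, adjusted p = 0.116). It was also lost with no background correction (adjusted p = 0.0542 by limma), with the scanner's own normalization (adjusted p = 0.140), with slide as a random block (adjusted p = 0.0513) and when only the 2 BN groups were fitted (adjusted p = 0.149). The Gp9 call was lost without BN control 1 (-0.50, adjusted p = 0.0529 by limma), BN control 3 (-0.54, adjusted p = 0.0519) or BN procainamide 2 (-0.41, adjusted p = 0.0611).

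P2ry12, the ADP receptor that clopidogrel blocks, had the smallest p of the 9 genes in BN. Its log2 ratios were -0.69, -0.60, -0.45 and -0.72 in BN procainamide 1 to 4, against 0.22, 0.15, -0.10 and -0.05 in BN control 1 to 4. The groups did not overlap, and the difference was -0.67 ± 0.11 (SE; adjusted p = 5.54e-04 by limma). The call held with each of the 8 BN arrays left out in turn. Itgb3, the beta chain of the fibrinogen receptor, was not called. It had -0.26, 0.38, 0.34 and -0.27 in BN procainamide 1 to 4, against 0.39, 0.22, 0.02 and 0.43 in BN control 1 to 4. BN procainamide 2 and 3 lay within the controls and 1 and 4 below them (difference -0.22 ± 0.16, SE; adjusted p = 0.358 by limma).

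Ppbp, the precursor of platelet basic protein, had the largest difference of the 9 genes in BN and one of the widest spreads. Its log2 ratios were -2.49, -1.12, -0.69 and -1.58 in BN procainamide 1 to 4, against 0.78, -0.65, -0.70 and -0.29 in BN control 1 to 4. BN procainamide 3 lay at the level of BN control 2 and 3. The difference was -1.25 ± 0.38 (SE; adjusted p = 0.0244 by limma), and it was lost without BN control 1 (-0.92, adjusted p = 0.0766 by limma), BN procainamide 1 (-0.91, adjusted p = 0.0702) or BN procainamide 4 (-1.22, adjusted p = 0.0576). The probe of Ppbp had 10 spots per array, whose log2 ratios had a median SD of 0.0554, far below the spread between arrays.

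Pf4, platelet factor 4, was not called in BN. Its log2 ratios were -0.34, -0.97, 0.03 and -0.07 in BN procainamide 1 to 4, against 0.13, -0.32, 0.42 and -0.30 in BN control 1 to 4. The groups overlapped widely, with a difference of -0.32 ± 0.20 (SE; adjusted p = 0.265 by limma). Across the 18 arrays the log2 ratios of the 2 chemokine genes had a Pearson correlation of 0.30, and of 0.05 after each group's mean was taken out, as a description.

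F13a1 had log2 ratios of -0.33, -0.68, -0.44 and -0.67 in BN procainamide 1 to 4, against 0.27, -0.20, 0.04 and -0.09 in BN control 1 to 4. The groups did not overlap, and the difference was -0.53 ± 0.12 (SE; adjusted p = 0.00510 by limma). With the scanner's own normalization it was -0.40 and not called (adjusted p = 0.0532 by limma). Selp had the widest spread of the 9 genes on BN procainamide arrays. It had -1.26, 0.30, -0.38 and -1.41 in BN procainamide 1 to 4, against 0.63, -0.28, -0.42 and -0.98 in BN control 1 to 4. BN procainamide 2 was higher than 3 of the controls, and the difference was -0.42 ± 0.34 (SE; adjusted p = 0.403 by limma).

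**Figure D2:**
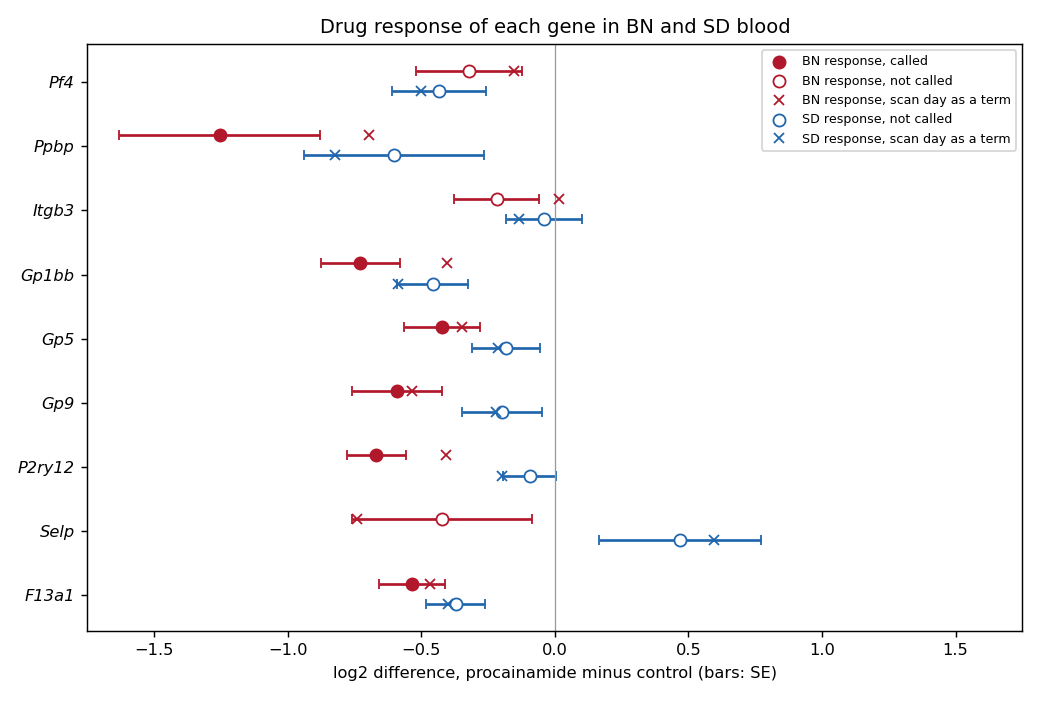
Log2 difference between procainamide and control arrays (horizontal axis, bars SE) of each platelet gene in BN and in SD blood, filled where called, with the value from the fit with scan day as a term as a cross. The BN values of 6 genes are filled, none of the SD values is, and the BN crosses lie nearer 0 than their circles for 8 genes, Selp being the exception.

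The Cy3 channel moved too, although by the labels it held the same BN control RNA on slides 2 and 3. Over all named genes the median absolute Cy3 difference between BN procainamide and BN control arrays was 0.179, against 0.0751 between SD procainamide and SD control arrays. For Gp1bb the Cy3 channel was 0.61 higher on BN procainamide arrays and the Cy5 channel 0.12 lower, so most of its ratio's difference came from the reference channel. Pf4 was alike, with Cy3 higher by 0.30 and a Cy5 difference of -0.03.

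For Ppbp, Gp9, F13a1 and Gp5 the sample channel carried most of the difference. Their Cy5 differences were -1.10, -0.44, -0.38 and -0.33, and their Cy3 differences 0.15, 0.15, 0.15 and 0.09. P2ry12 had a Cy5 difference of -0.42 and a Cy3 difference of 0.25. Itgb3 and Selp were lower in both channels, with differences of -0.87 and -0.94 in Cy5 and of -0.65 and -0.52 in Cy3. In Cy5 alone Ppbp, Gp9, F13a1 and P2ry12 were again called lower. Itgb3 (adjusted p = 2.48e-04 by limma) and Selp (adjusted p = 0.0105 by limma) were called lower too. Gp1bb (adjusted p = 0.585 by limma) and Gp5 (adjusted p = 0.116 by limma) were not called. The share of all named genes called in that fit is not given here. Apart from single omissions, the alternative BN fits called 209 to 10184 probes, against 5757 in the main fit. The cause of the Cy3 differences was not tested.

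**Figure D3:**
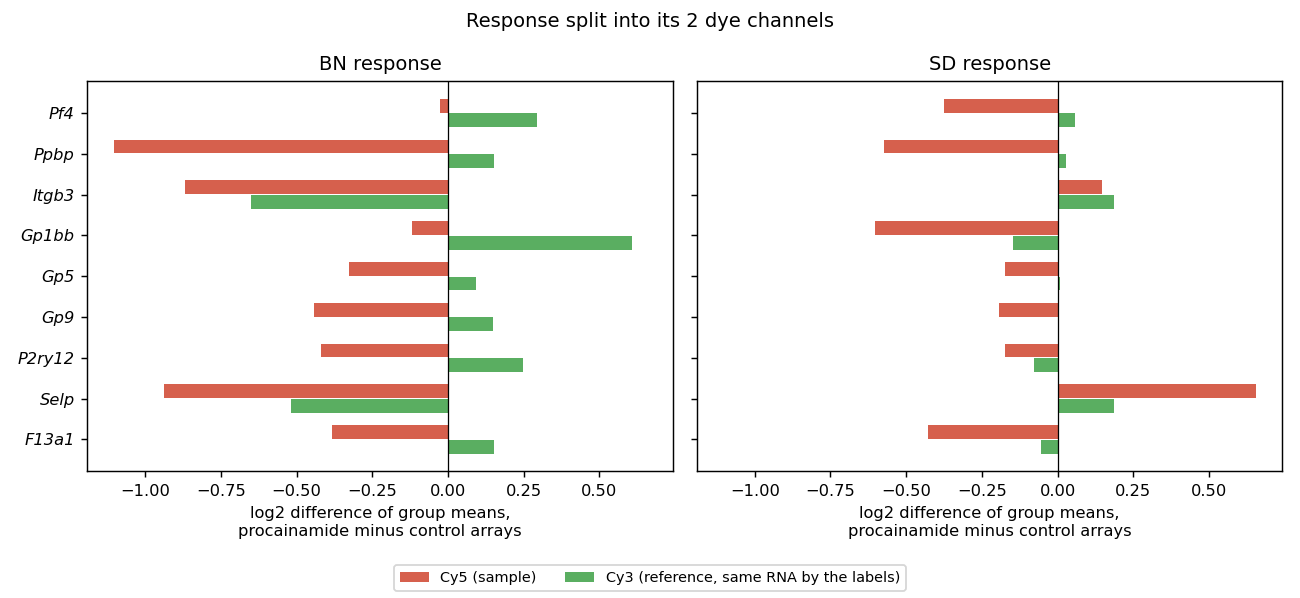
Difference of group means between procainamide and control arrays on the log2 scale (horizontal axes) in the sample channel Cy5 and the reference channel Cy3, for each platelet gene in BN (left) and SD (right). The BN reference differs by 0.61 for Gp1bb and by -0.65 for Itgb3, while in SD no reference difference exceeds 0.19 in size.

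A fit with scan day as a term used the SD procainamide arrays, which lay on slides 1 and 2, and assumed that slide 3 behaved as slide 1. In that fit the BN differences were -0.70 for Ppbp, -0.53 for Gp9, -0.47 for F13a1, -0.41 for P2ry12, -0.40 for Gp1bb and -0.35 for Gp5. Their adjusted p-values by limma lay between 0.314 and 0.711, and those of all 9 genes between 0.314 and 0.991. With array brightness as a term P2ry12 was called lower (-0.64, adjusted p = 0.0393 by limma) and the other 8 genes were not.

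In SD blood none of the 9 genes was called, while 1.76% of all named genes were called lower and 1.42% higher. The smallest unadjusted p-values of the 9 by limma's test were 0.00305 for Gp1bb, 0.00330 for F13a1 and 0.0253 for Pf4, all lower. How many of all named genes had p-values that small was not counted. The median log2 difference was -0.20, against -0.01 over all named genes, and 8 of the 9 values were below 0. The groups did not overlap for 2 of the 9 genes, and for 8.92% of all named genes.

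Gp1bb had log2 ratios of -0.48, -0.53, -0.73, -0.32 and -0.19 in SD procainamide 1 to 5, against -0.20, 0.06, 0.11, 0.11 and -0.06 in SD control 1 to 5. SD procainamide 5 overlapped with SD control 1, and the difference was -0.46 ± 0.13 (SE; adjusted p = 0.0726 by limma). F13a1 had -0.42, -0.59, -0.62, -0.35 and -0.60 in SD procainamide 1 to 5, against -0.14, -0.28, -0.03, 0.09 and -0.36 in SD control 1 to 5. SD control 5 reached the level of SD procainamide 4, with a difference of -0.37 ± 0.11 (SE; adjusted p = 0.0760 by limma).

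Pf4 had -0.68, -0.69, -0.32, -0.36 and -0.43 in SD procainamide 1 to 5, against -0.22, -0.0032, -0.27, -0.05 and 0.23 in SD control 1 to 5. All SD procainamide arrays were below all SD control arrays, and the difference was -0.43 ± 0.18 (SE; adjusted p = 0.215 by limma). Selp went the other way. It had 0.60, 0.91, 0.25, 0.32 and 0.21 in SD procainamide 1 to 5, against 0.14, 0.17, 0.15, -0.06 and -0.44 in SD control 1 to 5. The SD procainamide arrays were all above the SD control arrays, by 0.47 ± 0.30 (SE; adjusted p = 0.462 by limma).

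The other 5 genes had SD differences of -0.60 ± 0.34 for Ppbp, -0.20 ± 0.15 for Gp9, -0.18 ± 0.13 for Gp5, -0.09 ± 0.10 for P2ry12 and -0.04 ± 0.14 for Itgb3 (SE). Their adjusted p-values by limma lay between 0.384 and 0.923. Ppbp was lowest in SD procainamide 3, at -1.37, and the other SD procainamide arrays lay between -0.58 and -0.14. With the SD procainamide arrays of slide 1 alone, which share their slide with the SD controls, again none was called. The differences were then -0.82 for Ppbp, -0.59 for Gp1bb, -0.50 for Pf4, -0.40 for F13a1 and 0.60 for Selp. In the fit of the 2 SD groups alone Gp1bb (adjusted p = 0.0317 by limma) and Pf4 (adjusted p = 0.0469 by limma) were called lower. The share of all named genes called in that fit is not given here. Apart from single omissions, the alternative SD fits called 128 to 1486 probes, against 727 in the main fit.

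The responses of the 2 strains were set against each other in the same model. P2ry12 was the 1 gene of the 9 called, with a response lower in BN than in SD by 0.57 on the log2 scale (difference -0.57 ± 0.15, SE; adjusted p = 0.0191 by limma), where 7.54% of all named genes were called lower and 3.15% higher. In SD its log2 ratios were -0.52, -0.64, -0.34, -0.22 and -0.26 in SD procainamide 1 to 5, against -0.36, -0.09, -0.31, -0.27 and -0.46 in SD control 1 to 5. These groups overlapped. The difference between strains was not called with scan day as a term (-0.21, adjusted p = 0.886 by limma), with brightness as a term (-0.53, adjusted p = 0.461 by limma) or with the slide 1 arrays as the only SD procainamide arrays (-0.47, adjusted p = 0.0910 by limma).

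Selp had the largest difference between the strains' responses in size, at -0.89 ± 0.45 (SE; adjusted p = 0.218 by limma). In Cy5 alone it was called (-1.59, adjusted p = 0.00286 by limma), as was Itgb3 (-1.02, adjusted p = 9.26e-04 by limma), and P2ry12 was not (adjusted p = 0.151 by limma). Both are the genes whose BN reference channel was lower on slide 3. The differences of the other 7 genes, Pf4, Ppbp, Itgb3, Gp1bb, Gp5, Gp9 and F13a1, lay between -0.65 for Ppbp and 0.11 for Pf4, with standard errors of 0.16 to 0.51 and adjusted p-values by limma of 0.276 to 0.831.

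Under water, log2 Cy5 was called higher in BN than in SD blood for 8 of the 9 genes, Pf4 being the exception; 2 of these calls held with scan day as a term. The groups overlapped for Pf4 and did not overlap for the other 8. Of all named genes 16.3% were called higher and 20.5% lower, and 34.5% had groups that did not overlap. The median log2 difference of the 9 genes was 0.65, against -0.06 over all named genes.

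Selp had the largest strain difference. Its log2 Cy5 was 10.56, 10.50, 10.29 and 9.47 in BN control 1 to 4, against 8.07, 8.06, 7.98, 7.76 and 7.94 in SD control 1 to 5. The lowest BN array was above the highest SD array, and the fold was 4.73 (log2 difference 2.24 ± 0.25, SE; adjusted p = 1.15e-05 by limma). F13a1 had 12.07, 11.51, 11.79 and 11.69 in BN control 1 to 4, against 10.69, 10.54, 10.77, 10.87 and 10.54 in SD control 1 to 5. Its level was 2.11-fold higher in BN (1.08 ± 0.11, SE; adjusted p = 5.34e-06 by limma).

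Gp5 had 9.50, 8.82, 8.82 and 8.86 in BN control 1 to 4, against 8.15, 8.05, 7.91, 7.99 and 7.80 in SD control 1 to 5. BN control 1 stood apart, and all 4 BN arrays were above the SD arrays (1.02 ± 0.15, SE; adjusted p = 1.15e-04 by limma). Gp1bb and Gp9 of the same receptor were higher in BN by 0.65 ± 0.15 (SE; adjusted p = 0.00339 by limma) and 0.59 ± 0.13 (SE; adjusted p = 0.00250 by limma). Gp1ba, which encodes the chain that binds von Willebrand factor, was also higher in BN (0.86 ± 0.18, SE; adjusted p = 0.00126 by limma), with a probe well above background on 12 of the 18 arrays.

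Itgb3 was higher in BN by 0.50 ± 0.14 and P2ry12 by 0.36 ± 0.09 (SE; adjusted p = 0.00856 and 0.00613 by limma). Ppbp averaged 13.54 ± 0.60 in BN control arrays and 12.59 ± 0.40 in SD control arrays (SD, n = 4 and 5; adjusted p = 0.0333 by limma for 0.95 ± 0.34, SE). This call was lost without BN control 1 (0.66, adjusted p = 0.120 by limma), BN control 4, SD control 1, SD control 3 or SD control 5 (adjusted p = 0.0537 to 0.0825). Pf4 averaged 14.62 ± 0.26 in BN control arrays and 14.35 ± 0.08 in SD control arrays, and its difference of 0.27 ± 0.12 (SE) was not called (adjusted p = 0.0960 by limma), although it was without BN control 2 (0.35, adjusted p = 0.0471 by limma).

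The 2 control groups lay on different slides scanned on different days. With scan day as a term F13a1 (1.15, adjusted p = 0.00530 by limma) and Selp (2.17, adjusted p = 0.0195 by limma) were called and the other 7 genes were not. In that fit Gp5 differed by 0.88, Gp1bb by 0.60, Gp9 by 0.51 and Ppbp by 0.42, and Itgb3 by -0.0069 (adjusted p = 0.991 by limma). The 2 Cy3 references could be compared within slide 2, as 1 RNA per strain with no test. There BN was above SD by 2.08 for Selp, 1.15 for Ppbp, 1.07 for F13a1, 0.98 for Gp5, 0.83 for Gp1bb, 0.78 for Gp9, 0.29 for Pf4, 0.21 for P2ry12 and 0.10 for Itgb3. All 9 reference values had the direction of the Cy5 comparison, with Itgb3 close to 0. By the labels each reference is control replicate 1 of its strain, whose RNA is also in the Cy5 comparison. The references are therefore not a separate set of samples.

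**Figure D4:**
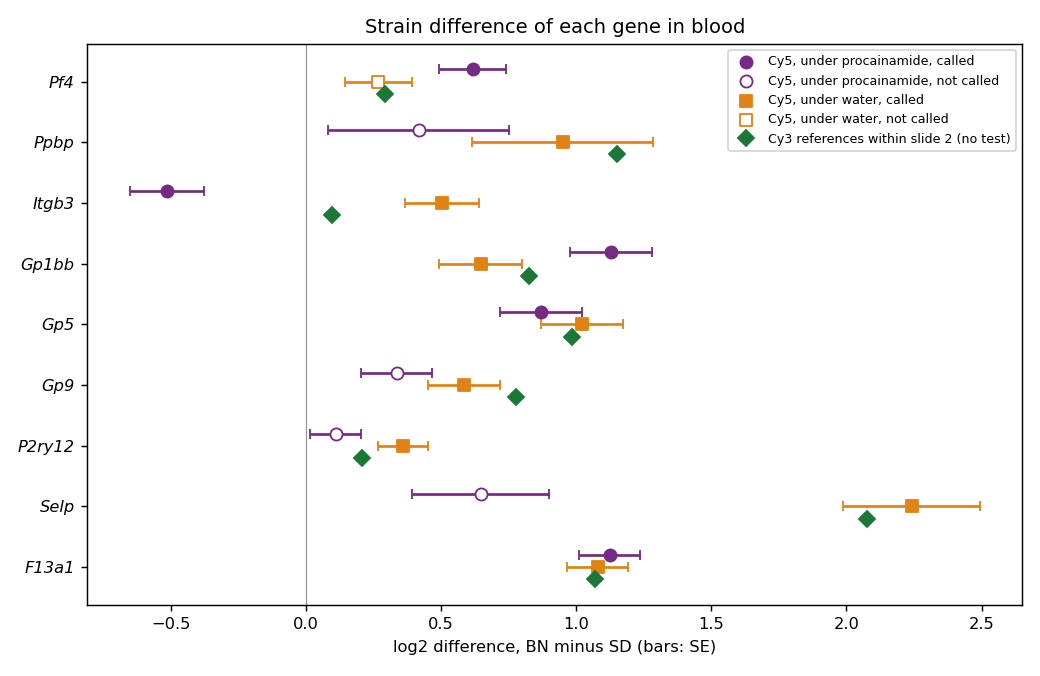
Log2 difference of BN over SD (horizontal axis, bars SE) of each platelet gene in Cy5 under procainamide and under water, filled where called, with the Cy3 references of the 2 strains within slide 2 as diamonds. All measured genes but Itgb3 lie to the right of 0 in all 3 readings, and Itgb3 lies on opposite sides of 0 under procainamide and under water.

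Under procainamide 4 of the 9 genes were higher in BN than in SD blood and 1 was lower, where 9.48% of all named genes were called higher and 9.55% lower. F13a1 was 2.18-fold higher in BN (1.12 ± 0.11, SE; adjusted p = 5.44e-06 by limma), Gp1bb 2.19-fold (1.13 ± 0.15, SE; adjusted p = 1.15e-04 by limma), Gp5 1.83-fold (0.87 ± 0.15, SE; adjusted p = 0.00104 by limma) and Pf4 1.53-fold (0.62 ± 0.12, SE; adjusted p = 0.00280 by limma). A second probe of Gp1bb gave 0.83 (adjusted p = 4.39e-04 by limma). The groups did not overlap for the 4 genes called higher, and for 13.9% of all named genes. These 4 genes were called in every alternative fit too, including the fit with scan day as a term. That fit assumed that slide 3, which held all BN procainamide arrays, behaved as slide 1. The BN reference read higher on slide 3 than on slide 2, by 0.61 for Gp1bb, 0.30 for Pf4, 0.15 for F13a1 and 0.09 for Gp5. Strain and slide cannot be told apart here.

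Itgb3 was lower in BN procainamide than in SD procainamide blood. Its log2 Cy5 was 12.77, 13.07, 13.20 and 12.79 in BN procainamide 1 to 4, against 13.30, 13.35, 13.16, 13.62 and 13.93 in SD procainamide 1 to 5. The groups overlapped at BN procainamide 3 and SD procainamide 3, and the difference was -0.51 ± 0.14 (SE; adjusted p = 0.0155 by limma). The 2 SD arrays on slide 2 were the highest, and with the slide 1 arrays alone as the SD group it was -0.31 (adjusted p = 0.108 by limma). Without BN procainamide 4 it was -0.46 (adjusted p = 0.0557 by limma). The call was lost in 7 of 21 alternative fits, these 2 among them. The BN reference for Itgb3 differed by -0.65 between slide 3, which held all BN procainamide arrays, and slide 2. The part of the slide in the strain difference was not tested.

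Selp had 8.75, 10.05, 9.58 and 8.67 in BN procainamide 1 to 4, against 8.55, 8.90, 8.33, 8.60 and 8.72 in SD procainamide 1 to 5. BN procainamide 1 and 4 were within the range of the SD arrays, and BN procainamide 2 and 3 were above it. Its difference of 0.65 ± 0.25 (SE; adjusted p = 0.0800 by limma) was not called, nor were those of Gp9 (0.34 ± 0.13, SE; adjusted p = 0.0816 by limma), Ppbp (0.42 ± 0.34, SE; adjusted p = 0.402 by limma) and P2ry12 (0.11 ± 0.09, SE; adjusted p = 0.430 by limma). Selp was called without BN procainamide 1 (0.82, adjusted p = 0.0352 by limma) or BN procainamide 4 (0.85, adjusted p = 0.0408), and Gp9 without BN procainamide 2 (0.48, adjusted p = 0.0165).

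A wider set of 82 platelet genes was grouped by role, of which 72 were measured. In BN blood 6 of the 72 were called higher and 10 lower after procainamide, with a median of -0.09, beside 8.99% and 13.8% of all named genes. Among adhesion and activation receptors 3 of 16 were lower and none higher: the scavenger and thrombospondin receptor Cd36 (-0.70, adjusted p = 5.76e-04 by limma), the serotonin receptor Htr2a (-0.68, adjusted p = 0.00216 by limma) and the thrombin receptor F2rl3 (-0.36, adjusted p = 0.0465 by limma). The median of these 16 was -0.25. Of 13 genes of megakaryocyte transcription and cytoskeleton 3 were lower and none higher, with a median of -0.28. These were Gfi1b (-0.65, adjusted p = 0.0392 by limma) and Meis1 (-0.53, adjusted p = 0.00817 by limma), both transcription factors, and Myl9, a myosin light chain (-0.48, adjusted p = 0.0230 by limma).

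Granule cargo moved in both directions, with 3 of 17 higher and 4 lower. The chemokine Ccl5 was 2.49-fold higher (adjusted p = 5.54e-04 by limma), and it is also a product of T cells and NK cells. The growth factor chain Pdgfa was higher too (0.43, adjusted p = 0.00685 by limma), whereas Igf1 (-0.72, adjusted p = 0.00216 by limma) and the matrix protein Sparc (-0.50, adjusted p = 0.00678 by limma) were lower. Of 12 genes of granule formation and release 3 were higher and none lower: the SNARE protein Snap23 (0.35, adjusted p = 0.00874 by limma), Vipas39 (0.29, adjusted p = 0.0140 by limma) and Lyst (0.32, adjusted p = 0.0308 by limma), both of which act in granule biogenesis. None of 14 genes of signalling and integrin activation was called, and their median was 0.13.

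**Figure D5:**
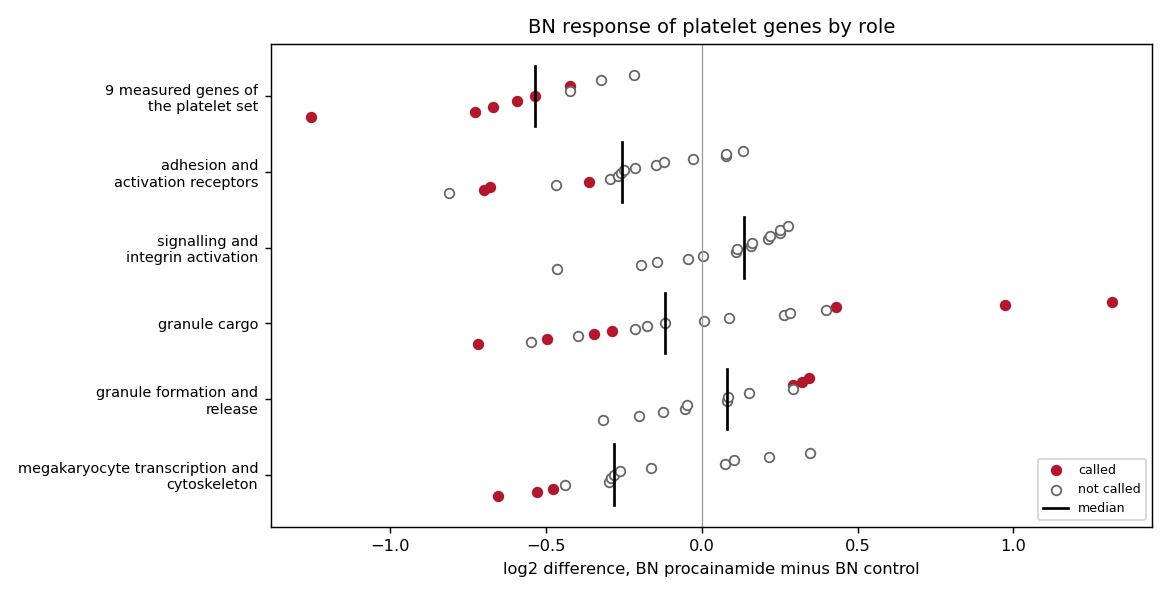
Log2 difference between BN procainamide and BN control arrays (horizontal axis) of the 9 measured platelet genes and of 72 further platelet genes in 5 role groups, as 1 point per gene, filled where called, with the median of each group as a black line. The medians are -0.53 for the 9 genes, -0.25 for receptors, -0.28 for megakaryocyte genes, -0.12 for granule cargo, 0.08 for granule formation and 0.13 for signalling.

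In SD blood 3 of the 72 were higher and 1 lower after procainamide, beside 1.42% and 1.76% of all named genes. Timp1, a metalloproteinase inhibitor, was 2.15-fold higher (adjusted p = 0.0103 by limma) and Ccl5 1.81-fold higher (adjusted p = 0.0251 by limma), and Cd36 was lower (-0.40, adjusted p = 0.0476 by limma). In the difference of responses 1 of the 72 was lower and 1 higher, beside 7.54% and 3.15% of all named genes. Htr2a was lower in BN (-0.83, adjusted p = 0.00820 by limma) and the thrombin receptor F2r higher (0.51, adjusted p = 0.0382 by limma).

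Under water 16 of the 72 were higher and 5 lower in BN than in SD, beside 16.3% and 20.5% of all named genes. Examples are the serotonin transporter Slc6a4 (0.92, adjusted p = 2.01e-04 by limma), Htr2a (0.86, adjusted p = 1.68e-04 by limma), the granule-secretion GTPase Rab27b (0.95, adjusted p = 3.15e-05 by limma), the platelet lipoxygenase Alox12 (0.86, adjusted p = 9.05e-04 by limma), the cyclooxygenase Ptgs1 (0.56, adjusted p = 0.00708 by limma) and Gfi1b (0.98, adjusted p = 0.00112 by limma). Lyst was lower (-0.61, adjusted p = 6.14e-04 by limma). Under procainamide 14 were higher and 3 lower, beside 9.48% and 9.55% of all named genes. They include the ATP receptor P2rx1 (1.08, adjusted p = 2.31e-04 by limma), the vesicular monoamine transporter Slc18a2 (0.74, adjusted p = 0.00177 by limma) and Rab27b (0.88, adjusted p = 1.15e-04 by limma) among the higher and Cd36 (-0.50, adjusted p = 2.91e-04 by limma) among the lower.

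Markers of other cells were read in the same BN comparison, in which 13.8% of all named genes were called lower and 8.99% higher. Of 8 measured endothelial markers out of 11, 3 were lower in BN after procainamide, namely Cdh5 (-1.22, adjusted p = 7.19e-05 by limma), Esam (-0.64, adjusted p = 4.92e-04 by limma) and Kdr (-0.52, adjusted p = 0.00299 by limma). The mean log2 ratio of the 8 lay between -0.61 and -0.24 on BN procainamide arrays, against -0.22 to 0.06 on BN control arrays. All 8 were well above background on all 18 arrays. Their summed normalized Cy5 signal was 100610 to 121432 on BN procainamide arrays, against 108922 to 126052 on BN control arrays. Endothelial Sele was above background on 2 arrays and was not tested.

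Of 8 smooth muscle and fibroblast markers 3 were lower in BN after procainamide (Col3a1, Col1a1 and Des), and their mean log2 ratio lay between -0.96 and -0.20 on BN procainamide arrays, against -0.16 to 0.23 on BN control arrays. Of 5 microglia and macrophage markers Tmem119 was lower (-0.95, adjusted p = 0.00101 by limma), with a list mean of -0.78 to 0.13 on BN procainamide arrays, against -0.13 to 0.24 on BN control arrays. Of 10 monocyte markers Lyz2 was higher (1.29, adjusted p = 0.00146 by limma), with a list mean of -0.22 to 0.59 on BN procainamide arrays, against -0.34 to 0.06 on BN control arrays. Of 8 neutrophil markers Mmp9 was higher (0.97, adjusted p = 0.00711 by limma), with a list mean of -0.41 to 0.81 on BN procainamide arrays, against -0.51 to 0.05 on BN control arrays.

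Of 7 measured erythroid markers Klf1 was lower in BN after procainamide (-0.77, adjusted p = 0.0286 by limma). Of 7 T cell markers Cd27 (0.41, adjusted p = 0.00382 by limma) and Trat1 (0.97, adjusted p = 0.0195 by limma) were higher, and none of 3 measured B cell markers was called. Under water Cdh5 was higher in BN than in SD (0.76, adjusted p = 1.87e-04 by limma) and Emcn lower (-0.64, adjusted p = 0.0484 by limma). Under procainamide 6 of 8 neutrophil markers were called higher in BN than in SD and none lower, with a median log2 difference of 1.23. Called lower were 2 of 8 endothelial, 1 of 5 microglia and macrophage and 1 of 7 T cell markers. Of all named genes 9.48% were called higher and 9.55% lower in that comparison. The part of these cells in the values of the 9 genes, Selp, F13a1, P2ry12 and Itgb3 among them, was not tested.

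The mean log2 ratio of the 9 genes was -0.79, -0.60, -0.26 and -0.73 in BN procainamide 1 to 4, against 0.38, -0.19, -0.05 and -0.21 in BN control 1 to 4. In SD it was -0.28, -0.22, -0.40, -0.16 and -0.12 in SD procainamide 1 to 5, against -0.16, 0.07, -0.03, 0.08 and -0.09 in SD control 1 to 5. The BN procainamide arrays were all below the BN control arrays, and SD control 1 lay within the SD procainamide range. The named genes whose log2 ratios followed this mean most closely over the 18 arrays were Tmem40 (Pearson r 0.97), Itgb5 (0.92), Abhd12 (0.92), Gpx1 (0.91) and Sumf1 (0.91), with Spearman's rho of 0.94, 0.74, 0.65, 0.86 and 0.78. These 18 points share 4 groups, 3 slides and 2 references, and the correlations are descriptions.

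Within the set, Gp1bb and F13a1 had the highest correlation over the 18 arrays (r 0.87, and 0.58 with group means taken out). The correlations of Selp with the other 8 genes ran from -0.36 with Pf4 to 0.52 with Ppbp, and that of Pf4 with Itgb3 was -0.09. Pf4 and Gp9 had the highest correlation with group means taken out (0.79).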

How the data were processed

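Spot intensities of both channels, not normalized, were deposited as output of Feature Extraction 10.7.1.1, per the file headers. That software also wrote, per the file headers, a log10 ratio of the processed channels (Cy5 over Cy3). A log2 matrix of the authors was used as an alternative. Its scale, centring and direction are unstated; every column lay on slope 1 against the scanner's log ratios at base 2, so it holds log2 Cy5 over Cy3 with no gene centred. Its column medians ran from -0.014 to 0.0653, and the filter on its probes is unstated.

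Median spot intensities were corrected by normexp (offset 50) and loess within arrays with limma 3.58.1 in R 4.3.3; spots of a probe were averaged, flagged spots left out. The design had foreseen mean intensities, and the files hold medians. Log2 Cy5 came from Aquantile normalization. Of 30367 probes 18355 carried 1 RefSeq symbol (GRCr8 table), and 26446 were tested, those whose Cy5 stood well above background on 4 or more of 18 arrays, with 4 group means, 14 residual degrees of freedom and Benjamini-Hochberg adjustment at 0.05. No spot was saturated. Each gene was read from its brightest probe on average. Besides the 10 genes, up to 4 called genes of smallest p per list were named in BN and up to 2 in each other comparison, and the 5 genes most correlated with the mean of the 9. These genes and lists were chosen with earlier results of these data known. The fit was tested on simulated data of independent noise, with no slide, scan day or reference effect. That test cannot speak to those effects. Same-numbered replicates did not deviate together (r -0.52 to 0.13). Alternatives covered normalization, filters, slide, scan day, brightness, replicate block and each array left out. The number of arrays limits the precision.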

Additional observations from a re-analysis of the deposited data

Results flagged for a closer look

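Among 72 groups of 4 or 5 arrays examined for a single array far from the others, 2 had one, and chance gives about 1 in 20. Gp5 had a log2 Cy5 of 9.50 in BN control 1, against 8.82 to 8.86 in the other BN control arrays. Gp1bb had a log2 Cy5 of 12.41 in SD control 1, against 12.62 to 12.68 in the other SD control arrays. The strains' responses to procainamide differed for P2ry12, with a difference of -0.57 on the log2 scale, BN minus SD (adjusted p = 0.0191 by limma), lower in 4 of 4 BN procainamide arrays than in any BN control array.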

How the results depend on the processing

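Of the 9 genes, 6 were called in BN, against 0 with scan day as a term, 1 with brightness as a term and 3 when only the 2 BN groups were fitted. Leaving out single arrays gave 3 to 6, the 3 without BN control 1. In SD 0 were called, against 2 in Cy5 alone and 2 with only the SD groups fitted; single omissions gave 0. The difference of responses had 1, against 2 in Cy5 alone and 0 with scan day, with brightness, with the slide 1 arrays or with the replicate block; single omissions gave 1. Under water 8 were called, against 2 with scan day and 4 with brightness; single omissions gave 7 to 9. There Itgb3 was the 1 reversal, at -0.0069 with scan day as a term (adjusted p = 0.991 by limma). Under procainamide 5 were called, 4 to 5 in other fits and 5 to 6 with single omissions. There Itgb3 was lost in 7 of 21 alternatives, among them that without BN procainamide 4 (adjusted p = 0.0557 by limma). The replicate block gave 4, 0, 0, 7 and 4 genes in BN, SD, the difference of responses, under water and under procainamide; the numbers do not pair the arrays. In BN the block lost Gp5 (adjusted p = 0.0940 by limma) and Ppbp (adjusted p = 0.0927 by limma), the scanner's normalization gave 4 genes (F13a1 and Gp5 lost), and no background correction and slide as a random block gave 5 each (Gp5 lost). Fitting only the BN groups lost Gp5, Gp9 and Ppbp. Without one BN array, Gp5, Gp9 and Ppbp each lost their BN call at least once. Over all probes the counts were 5757 in BN (209 to 10184 in other fits, 3936 to 6497 with single omissions), 727 in SD (128 to 1486, 234 to 956), 2948 for the difference (0 to 9110, 1882 to 3824), 5248 under procainamide (1907 to 6531, 3240 to 5786) and 10183 under water (372 to 11169, 8521 to 10282). The Cy3 references within slide 2 were an alternative chosen after seeing the data.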
